A study of Mus musculus with 6 samples.

Results

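The miRNAs described here come from the proximal part of the imprinted Dlk1-Dio3 region of mouse chromosome 12, the stretch that runs from the long noncoding RNA Meg3 over the strand opposite Rtl1 into the long noncoding RNA Rian. They were taken by name, as every arm of the stems miR-127, miR-136, miR-337, miR-341, miR-370, miR-431, miR-433, miR-434, miR-493, miR-540, miR-665, miR-673, miR-770, miR-1188 and miR-3070 in the deposited table. The choice of stems was made with earlier results of these data known. That gave 31 mature arms of 15 stems among 1573 known miRNA rows. Of the 31 arms, 10 belong to the 5 stems encoded antisense to Rtl1 (miR-127, miR-136, miR-431, miR-433 and miR-434) and 21 to the 10 other stems.

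The groups were ET1 cells (n = 3 libraries), primary peritubular myoid cells of C57BL/6J mice given 50 nM endothelin-1 for 5 min at 37 °C, and untreated cells of the same kind (n = 3 libraries). Peritubular myoid cells are the contractile cells around the seminiferous tubules, and endothelin-1 (ET1) is a peptide that makes smooth muscle contract. Both groups were grown in DMEM/F12 with 10% fetal bovine serum and the labels name no transgene, mutation or other agent in either. The age of the mice, and whether the libraries came from separate animals or cultures, are not given in the labels, so p-values measure the spread between these libraries only, which may be technical.

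In the Dlk1-Dio3 region the miRNAs and long noncoding RNAs are transcribed from the maternal chromosome, whereas Dlk1, Rtl1 and Dio3 are protein-coding genes expressed from the paternal one. Rtl1 derives from a retrotransposon and is needed in the placenta. The miRNAs cut from its antisense transcript match the Rtl1 mRNA perfectly and direct its cleavage, while the miRNAs beyond it act on other mRNAs through the seed, bases 2 to 8 of the mature strand.

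All 31 arms matched a mature sequence in RefSeq (GRCm38.p6, the assembly behind mm10), on the plus strand of chromosome 12, with precursors between positions 109563692 and 109618336, a span of 54.6 kb. The reverse complement of each of the 10 arms antisense to Rtl1 was found without a mismatch in the Rtl1 transcript of GENCODE M21, and that of none of the other 21. The most counted arms of this set are shown in the order of their precursors, with the seed in capitals, because their complement to Rtl1 sets them apart.
miR-431-5p: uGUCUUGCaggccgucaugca
miR-431-3p: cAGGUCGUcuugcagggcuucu
miR-433-3p: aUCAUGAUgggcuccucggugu
miR-127-3p: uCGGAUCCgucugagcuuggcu
miR-434-5p: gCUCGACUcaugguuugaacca
miR-434-3p: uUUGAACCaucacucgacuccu

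The precursors of these arms lie opposite an exon of Rtl1 (12, 109589193 to 109600330, minus strand): Mir431 at 109590447 to 109590537, Mir433 at 109591715 to 109591838, Mir127 at 109592846 to 109592915 and Mir434 at 109594506 to 109594599. Mir136, at 109595327 to 109595388, lies there too. The other stems fall on both sides. Mir770 (109563692 to 109563785) overlaps an exon of Meg3, and Mir341 (109611500 to 109611595), Mir1188 (109611822 to 109611941) and Mir370 (109618258 to 109618336) lie in introns of Rian. Mir673, Mir493, Mir337, Mir540, Mir665 and both copies of Mir3070 lie between Meg3 and Rtl1 with no host gene on their strand in GENCODE M21. The main arms of these stems are shown because they carry the comparison below, again with the seed in capitals.
miR-770-5p: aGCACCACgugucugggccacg
miR-770-3p: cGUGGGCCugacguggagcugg
miR-673-5p: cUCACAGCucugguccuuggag
miR-493-5p: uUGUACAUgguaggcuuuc
miR-493-3p: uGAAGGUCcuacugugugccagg
miR-337-5p: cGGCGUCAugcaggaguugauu
miR-540-3p: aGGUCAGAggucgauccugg
miR-3070-2-3p: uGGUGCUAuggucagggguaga
miR-341-3p: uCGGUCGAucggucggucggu
miR-1188-5p: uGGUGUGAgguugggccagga
miR-370-3p: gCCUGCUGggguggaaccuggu

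The 31 arms held 30 different seeds. The only seed that members shared was that of the 3p arms of the miR-3070 copies, GGUGCUA. Counted from the 5′ end, miR-3070-2-3p differs from miR-3070-3p by U9C and G10C, and miR-3070-3p was counted at 0 in every library (a limit of 3 counts, or 0.347 to 0.685 CPM of known miRNA tags). Among the other known miRNAs, the seed of miR-540-3p also occurs in miR-6915-5p, counted 5 to 16 times in a library, that of miR-673-5p in miR-6985-3p, counted 1 to 8 times, and that of miR-370-5p in miR-1193-3p, counted 78 to 160 times.

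The libraries held 18127265 to 20895432 tags. Of all tags, known miRNAs took up 24.3% ± 1.53 in ET1 libraries and 38.2% ± 7.75 in untreated ones, and rRNA fragments 9.44% ± 2.05 and 4.55% ± 1.22 of them (SD, n = 3 each; the groups overlapped for neither). Among the markers of cell types, the smooth muscle arms were miR-143-3p, miR-143-5p, miR-145a-5p and miR-145a-3p. Their sum was 12964 to 15534 CPM in the ET1 group, against 20367 to 27744 CPM in the untreated group. miR-143-3p was at 10456 CPM or more in every library and miR-143-5p at 0 to 0.751 CPM. The lower sum came mostly from miR-143-3p, with group means of 11789 (ET1) and 22500.5 CPM (untreated). The rarer miR-145a-3p was also lower in every ET1 library. miR-145a-5p overlapped, with group means of 2431 (ET1) and 2618 CPM (untreated). The 2 endothelial arms of miR-126a summed to 114 to 163 CPM in ET1 and 1107 to 1883 CPM in untreated libraries, and the 4 lymphoid and myeloid arms to 36.3 to 40.6 and 236 to 323.5 CPM; both endothelial arms were lower in every ET1 library than in any untreated one. Of the lymphoid and myeloid arms miR-150-5p was lower in every ET1 library, miR-142a-3p was higher in every ET1 library (1.40 to 2.96 CPM in ET1 and 0 to 1.01 CPM in untreated libraries), and miR-223-3p and miR-142a-5p overlapped, so the lower sum came from miR-150-5p. The sums of the fibroblast (21982 to 24232 and 18348 to 23473 CPM), epithelial (75.1 to 129 and 109.9 to 343), Sertoli (621 to 1905 and 918 to 1389), germ cell (883 to 4830 and 491 to 1337) and red cell lists (38.3 to 303 and 48.9 to 673.1, ET1 and untreated each) overlapped. Some single arms did not. The fibroblast arms miR-214-3p (means 7992 and 3905 CPM) and miR-199a-5p (590 and 370 CPM) were higher in every ET1 library. So were the germ cell arms miR-449a-5p and miR-883a-3p and the red cell arm miR-144-3p, the last 2 too rare for the test. The other arms of these lists overlapped. The part of these differences in the results below was not tested, and in such bulk libraries fewer cells of a type and less RNA per cell cannot be told apart.

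Levels are given as CPM, tag counts scaled to the sum of known miRNA tags and then by TMM, a factor per library that brings most miRNAs to the same level. Summed over the raw tags, the arms made up 1.73%, 0.792% and 1.69% of known miRNA tags in ET1 libraries 1, 2 and 3, against 1.06%, 0.849% and 1.08% in untreated libraries 1, 2 and 3. The groups overlapped, because ET1 library 2 lay below all the others. Most of this sum was miR-127-3p. It held 77.7%, 60.3% and 70.4% of the members' tags in the ET1 libraries, against 85.0%, 88.2% and 85.4% in the untreated libraries, with no overlap.

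The sums of the other arms did not overlap between the groups. miR-127-3p took up 1.002% ± 0.461 of known miRNA tags in ET1 and 0.858% ± 0.0953 in untreated libraries, a difference smaller than the spread in the ET1 group. The other arms antisense to Rtl1 took up 0.200%, 0.187% and 0.273% in ET1 libraries, against 0.0861%, 0.0539% and 0.0929% in untreated libraries. Every ET1 library was thus above every untreated one. The 21 arms of the other stems took up 0.185%, 0.127% and 0.226% in ET1 libraries, against 0.0733%, 0.0464% and 0.0645% in untreated libraries, again with no overlap. These sums are given as a description, without a test. The sum of the other arms antisense to Rtl1 was mostly miR-433-3p in every library. Of the rarer arms in that sum, miR-434-3p and miR-434-5p overlapped between the groups as a share of known miRNA tags, the scale of the sum. On that scale miR-431-5p and miR-431-3p did not overlap, although miR-431-5p did in TMM-scaled CPM. The sum therefore does not stand for each arm in it. Nor does the sum of the other stems. Its difference between the groups was 0.118 percentage points, and 0.0667 without miR-540-3p, and its arm miR-337-5p overlapped between the groups.

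**Figure D1:**
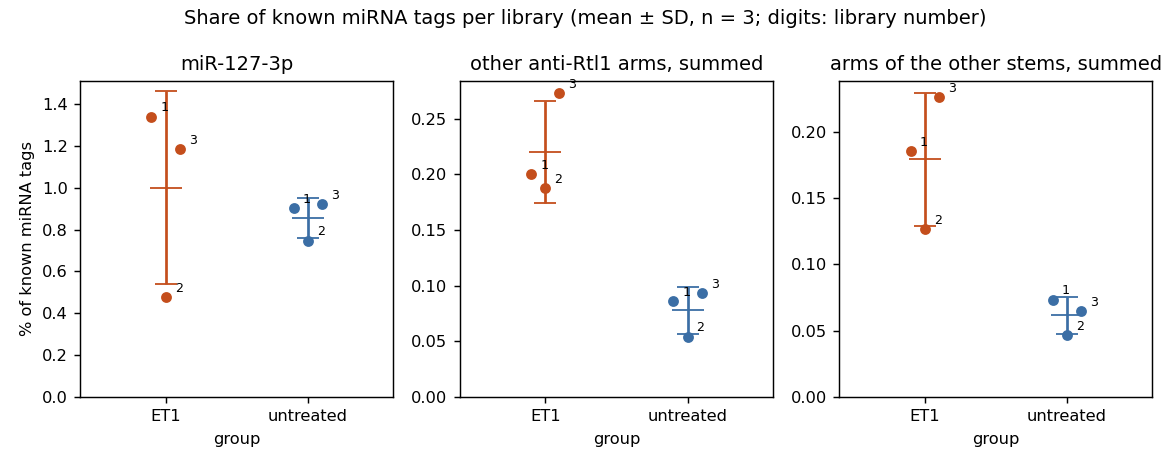
Share of known miRNA tags (percent, linear axes from 0) for miR-127-3p, for the other arms antisense to Rtl1 and for the arms of the other stems; points are libraries, numbered within their group, and bars are mean ± SD of 3 libraries. miR-127-3p overlapped between the groups, with ET1 library 2 lowest at 0.478%. Both remaining sums were higher in every ET1 library than in any untreated library. The sum of the other arms antisense to Rtl1 was mostly miR-433-3p.

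The test across all known miRNAs (edgeR's quasi-likelihood test with Benjamini-Hochberg adjustment) kept 616 of them after its filter on low counts, and 17 of the 31 arms: 6 of the 10 antisense to Rtl1 and 11 of the 21 others. At an adjusted p under 0.05, 2 of the 17 rose and none fell, beside 1.30% of the 616 called higher and 0.487% called lower. In 8 of the 17 the groups did not overlap with ET1 above, beside 12.5% of the 616, and in none with ET1 below, beside 11.0%. At an unadjusted p under 0.05, 8 of the 17 were higher, beside 9.42% of the 616. The log2 fold change, ET1 over untreated, was positive in 14 of the 17 with a median of 0.95; over all 616 it was positive in 50.5% with a median of 0.0058. These shares describe the list and are not a test of it. Which of the arms passed depended on single libraries, as given with each below: none of the 17 passed without ET1 library 3 (0% of known miRNAs called higher) or without untreated library 2 (0.311%), and 1 passed without ET1 library 2 (0.594%).

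**Figure D2:**
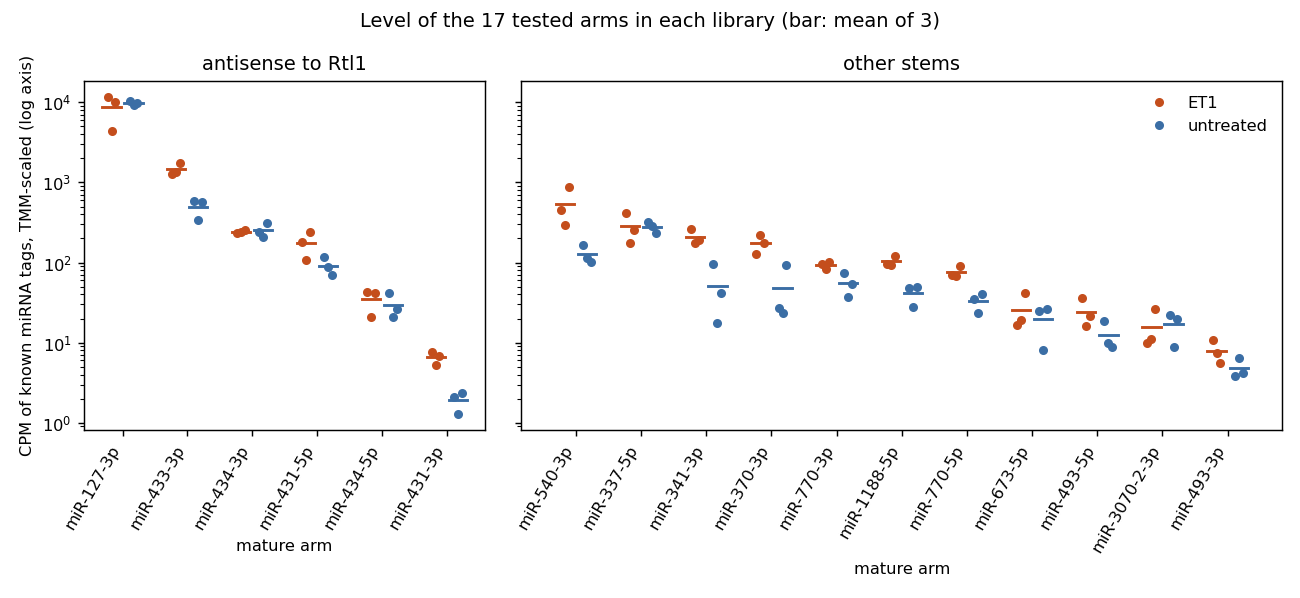
Level of the 17 tested arms in TMM-scaled CPM (log axis), the arms antisense to Rtl1 on the left and those of the other stems on the right; points are the 3 libraries of a group and the short bars their mean. The groups are apart for miR-433-3p and miR-431-3p on the left and for miR-540-3p, miR-341-3p, miR-370-3p, miR-770-3p, miR-1188-5p and miR-770-5p on the right, each with ET1 above.

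Among the arms antisense to Rtl1, miR-433-3p rose and the neighbouring miR-127-3p did not pass. miR-433-3p, which in mouse mesenchymal cells represses the osteoblast factor Runx2, stood at 1273, 1356.5 and 1759.6 CPM in ET1 libraries 1, 2 and 3, against 583, 340.3 and 563 CPM in untreated libraries 1, 2 and 3. Every ET1 library lay above the highest untreated library. The mean was 1463 ± 260.1 CPM in ET1 and 495.3 ± 135 CPM in untreated ones (SD over 3 libraries), 2.95-fold higher (edgeR adjusted p = 0.045; log2 fold change 1.56, SE 0.36). With 1 library left out the log2 fold change ran from 1.34 to 1.70. It did not pass without ET1 library 2 (1.59), ET1 library 3 (1.41), untreated library 1 (1.70) or untreated library 2 (1.34; edgeR adjusted p = 0.065, 0.13, 0.066 and 0.19).

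miR-127-3p, which silences Rtl1 and in human cells also targets BCL6, was the most abundant of the arms and ranked 26 among the known miRNAs. It stood at 11664, 4421 and 10045 CPM in ET1 libraries, against 10318, 9166 and 9659 CPM in untreated libraries. ET1 library 2 lay below the untreated range, ET1 library 3 within it and ET1 library 1 above it. The log2 fold change was −0.16 (SE 0.36; edgeR adjusted p = 0.86), 0.22 with library sizes alone in place of TMM, and 0.13 without ET1 library 2.

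The ratio of neighbours within a library does not depend on the scaling. For each 100 tags of miR-127-3p there were 10.9, 30.7 and 17.5 tags of miR-433-3p in ET1 libraries, against 5.65, 3.71 and 5.83 in untreated libraries. For miR-431-5p there were 1.53, 2.45 and 2.43 in ET1 libraries, against 1.12, 0.966 and 0.724 in untreated libraries. Both ratios were higher in every ET1 library. For miR-434-3p the ratio was 1.99, 5.43 and 2.56 in ET1 libraries, against 2.33, 2.27 and 3.21 in untreated libraries, and the groups overlapped. These ratios were chosen after the levels had been seen and are given without a test.

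miR-431 is known from skeletal muscle, where it represses Pax7 in mouse satellite cells. Its main arm, miR-431-5p, stood at 178, 108 and 244 CPM in ET1 libraries, against 116, 88.5 and 69.96 CPM in untreated libraries. ET1 library 2 lay below untreated library 1, so the groups overlapped (edgeR adjusted p = 0.26; log2 fold change 0.95, SE 0.43). The rarer miR-431-3p stood at 7.70, 5.28 and 6.84 CPM in ET1 libraries, against 2.12, 1.27 and 2.35 CPM in untreated libraries. Its groups did not overlap, at a log2 fold change of 1.78 (SE 0.51; edgeR adjusted p = 0.083), and it passed with library sizes alone (2.14; edgeR adjusted p = 0.041).

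The arms of miR-434, the stem next to miR-127, differed between the groups by less than the spread between libraries. miR-434-3p stood at 232, 240.2 and 257 CPM in ET1 libraries, against 240.4, 208 and 310.4 CPM in untreated libraries (edgeR adjusted p = 0.95; log2 fold change −0.057, SE 0.37), and the sign was positive with library sizes alone (0.30). miR-434-5p stood at 43.0, 20.9 and 41.8 CPM in ET1 libraries, against 41.2, 20.8 and 26.3 CPM in untreated libraries (edgeR adjusted p = 0.82; log2 fold change 0.26, SE 0.48). Of miR-136, the remaining stem of this set, both arms were too rare for the test. miR-136-3p was counted 3, 12 and 10 times in ET1 libraries, against 9, 1 and 1 times in untreated libraries, and miR-136-5p at most 5 times in any library.

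Between Meg3 and Rtl1, miR-540-3p rose. It stood at 452.7, 295 and 872 CPM in ET1 libraries, against 165, 115 and 102 CPM in untreated libraries. All 3 ET1 libraries lay above the untreated ones, with ET1 library 3 far above the others. The mean was 539.97 ± 298 CPM in ET1 and 127.2 ± 33.6 CPM in untreated ones (SD over 3 libraries), 4.24-fold higher (edgeR adjusted p = 0.032; log2 fold change 2.09, SE 0.46). It did not pass without ET1 library 3 (1.54), untreated library 2 (1.996) or untreated library 3 (1.95; edgeR adjusted p = 0.13, 0.14 and 0.068).

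The precursor of miR-337 starts less than 1 kb before that of miR-540, but its main arm did not pass. miR-337-5p stood at 420.2, 174 and 251 CPM in ET1 libraries, against 318, 289 and 231 CPM in untreated libraries. The ET1 libraries lay on both sides of the untreated ones, at a log2 fold change of 0.013 (SE 0.41; edgeR adjusted p = 0.99), which was −0.035 in DESeq2 and −0.52 with all rows of the table fitted together. The remaining arms of this stretch were rarer. miR-673-5p stood at 16.5, 19.4 and 41.6 CPM in ET1 libraries, against 24.7, 8.07 and 26.7 CPM in untreated libraries (0.39, SE 0.55; edgeR adjusted p = 0.75), and was at −0.011 with all rows fitted together. miR-493-5p, of a stem studied in human tumours as a restraint on metastasis, stood at 35.7, 16.1 and 21.6 CPM in ET1 libraries, against 18.5, 9.77 and 8.72 CPM in untreated libraries (0.99, SE 0.50; edgeR adjusted p = 0.32). Its partner miR-493-3p had a log2 fold change of 0.70 (SE 0.48; edgeR adjusted p = 0.47). miR-3070-2-3p stood at 9.96, 11.2 and 26.3 CPM in ET1 libraries, against 22.0, 8.78 and 19.96 CPM in untreated libraries (−0.093, SE 0.53; edgeR adjusted p = 0.94), or 0.27 with library sizes alone. The groups overlapped for each of these 5 arms.

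Both arms of miR-770, from the Meg3 transcript, were higher in every ET1 library than in any untreated one, and neither passed the test. miR-770-3p stood at 96.9, 82.6 and 102 CPM in ET1 libraries, against 73.0, 37.2 and 54.5 CPM in untreated libraries (edgeR adjusted p = 0.37; log2 fold change 0.77, SE 0.43). miR-770-5p stood at 68.9, 67.4 and 89.5 CPM in ET1 libraries, against 35.5, 23.6 and 40.4 CPM in untreated libraries (1.18, SE 0.44; edgeR adjusted p = 0.15).

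The 3 stems in introns of Rian had their main arms higher in every ET1 library, and none passed the test. miR-341-3p stood at 259, 175 and 191 CPM in ET1 libraries, against 96.2, 17.4 and 41.1 CPM in untreated libraries. The untreated libraries varied widely (edgeR adjusted p = 0.079; log2 fold change 2.02, SE 0.56), and it passed without untreated library 1, at 2.84 (edgeR adjusted p = 0.014). It was at 1.44 with the share of known miRNA tags as a covariate and at 1.43 with GC offsets. That share did not overlap between the groups, so a fit with it can hardly tell the group from the share. miR-370-3p, which in human liver cells represses CPT1A, an enzyme that brings fatty acids into mitochondria, stood at 128, 221 and 178 CPM in ET1 libraries, against 26.8, 23.6 and 93.1 CPM in untreated libraries. Its log2 fold change was 1.88 (SE 0.55; edgeR adjusted p = 0.086), and it passed without untreated library 3, at 2.81 (edgeR adjusted p = 0.019). With that covariate it was at 0.24 (edgeR adjusted p = 0.97), and with GC offsets at 1.41 (edgeR adjusted p = 0.062). miR-1188-5p stood at 96.9, 94.2 and 121 CPM in ET1 libraries, against 47.7, 27.6 and 48.99 CPM in untreated libraries (1.33, SE 0.43; edgeR adjusted p = 0.10). DESeq2 called miR-341-3p and miR-370-3p beside miR-433-3p and miR-540-3p, 4 arms in all, beside 3.04% of known miRNAs called higher. Library sizes alone called 6, with miR-1188-5p and miR-431-3p added, beside 6.17%.

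**Figure D3:**
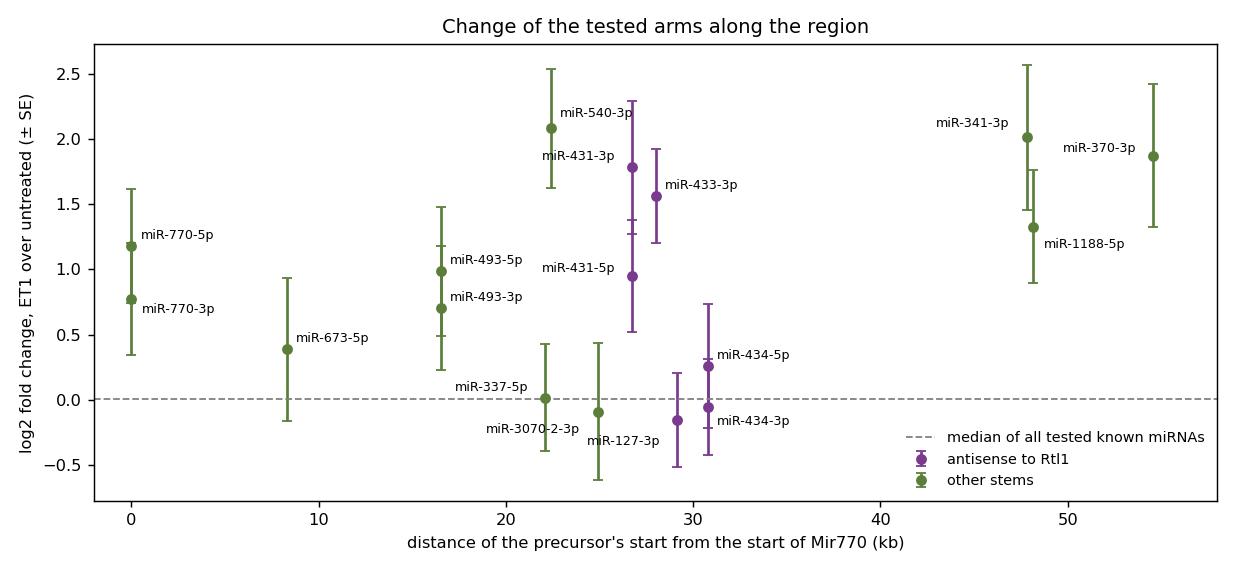
Log2 fold change, ET1 over untreated, with its SE for the 17 tested arms, by the distance of the precursor's start from the start of Mir770 in kb; the dashed line is the median of the 616 tested known miRNAs. Arms at 2.02, 1.33 and 1.88 come from the 3 stems in Rian, while miR-127-3p, miR-434-3p, miR-337-5p and miR-3070-2-3p lie near the line between arms that lie well above it.

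Among the arms antisense to Rtl1 the log2 fold change ran from −0.16 to 1.78 with a median of 0.61 over 6 tested arms, and among the other stems from −0.093 to 2.09 with a median of 0.99 over 11. Precursors that start within 2 kb of each other, such as Mir433 and Mir127 or Mir337 and Mir540, held both an arm that passed and one that did not; the difference between such neighbours was not tested. The spread between libraries was also uneven. The coefficient of variation over 3 libraries was 5.27% to 57.6% in the ET1 group and 5.95% to 82.0% in the untreated group, and ET1 library 2 was the lowest of its group for 11 of the 17 arms and untreated library 2 for 12 of the 17. The arms share these libraries and are not independent. The same count was not made over all tested known miRNAs, so it cannot be called particular to these arms.

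Of the 14 arms that did not enter the test, 4 antisense to Rtl1 and 10 others, the highest count in any library was 26, and miR-665-5p and miR-3070-3p were at 0 in all 6. miR-665-3p was counted 24, 6 and 16 times in ET1 libraries, against 2, 0 and 5 times in untreated libraries, and miR-673-3p 14, 7 and 26 times, against 8, 7 and 8 times. Without a filter, when 1368 rows were tested, miR-665-3p passed along with miR-341-3p, miR-370-3p, miR-433-3p and miR-540-3p, beside 1.61% called higher. Apart from both arms of miR-136, the rest were the rarer arms of their stems, miR-127-5p among them with at most 3 tags in a library.

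Arm choice was compared in 13 stems with at least 20 tags in every library. In 9 of them 1 arm held over 95% of the tags in every library. The mixed stems were miR-434, miR-493, miR-673 and miR-770. In miR-770, where both arms were well counted, the 3p arm held 55.6% ± 2.59 of the stem's tags in ET1 and 61.95% ± 4.97 in untreated ones (SD over 3 libraries; two-sided exact permutation p = 0.2, or 0.93 adjusted over 13 stems). In miR-434 the 3p arm held 87.5% ± 4.01 and 89.5% ± 3.62 (exact permutation p = 0.7), and in miR-493 25.1% ± 5.71 and 29.9% ± 11.7 (exact permutation p = 0.6). In miR-431 the minor 3p arm held 3.84% ± 0.992 and 2.15% ± 0.966 (exact permutation p = 0.2). The smallest p that 3 libraries against 3 allow is 0.1, so no stem could pass.

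In the distal part of the same region, the miRNAs of the Mirg transcript, positive changes also outnumbered negative ones. Of 72 listed arms 52 were tested, 43 of them lay above 0 and 9 below on the log2 fold change scale, and the median was 0.68. Over all 616 tested known miRNAs 50.5% lay above 0. In the Mirg list 1 arm rose, miR-3072-5p (log2 fold change 2.33, edgeR adjusted p = 0.047), and none fell, beside 1.30% and 0.487% of the 616. The groups did not overlap in 20 of the 52 with ET1 above and in 2 with ET1 below, beside 12.5% and 11.0% of the 616. With the 17 arms removed, the remaining 599 known miRNAs had a median of −0.012. Library sizes alone in place of TMM moved the median of all tested miRNAs to 0.37 and that of the 17 arms to 1.34, both higher than with TMM.

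The change was related to GC content across miRNAs. Over the 514 tested arms with a RefSeq sequence, the log2 fold change and the GC content of the mature strand had a Spearman rho of 0.35, given as a description across miRNAs that share libraries and are not independent. Over the 17 arms alone rho was 0.50, with the same limit. The 17 arms had a median GC content of 59.1%, from 42.1% for miR-493-5p to 72.7% for miR-770-3p, against 52.2% over the 514. With offsets for GC content in the fit, the median of the 17 was 0.57 and that of all tested −0.054. miR-433-3p (1.53) and miR-540-3p (1.75) passed in that fit, where 0.973% of the known miRNAs were called higher, while miR-770-3p was at −0.12 in place of 0.77. With the share of known miRNA tags of each library as a covariate none of the known miRNAs passed (39 at an unadjusted p under 0.05). There miR-433-3p was at 1.01 and miR-540-3p at 2.44. The share was 22.6% to 25.5% in ET1 and 30.1% to 45.6% in untreated libraries, with no overlap. That fit can therefore hardly tell the group from the share, and its lack of calls decides nothing about either.

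**Figure D4:**
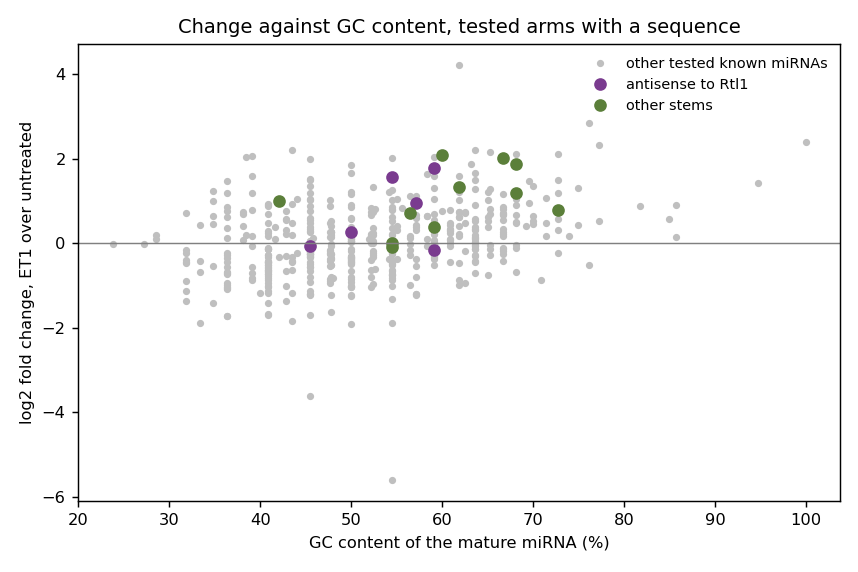
Log2 fold change, ET1 over untreated, against the GC content of the mature strand in percent for the 514 tested known miRNAs with a sequence; the 17 arms are coloured and the others grey. The coloured points lie mostly right of the overall median of 52.2% and above 0, with miR-127-3p, miR-434-3p and miR-3070-2-3p below 0 at 59.1%, 45.5% and 54.5%.

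The authors' deposited table compares counts pooled over the libraries of a group, without a term for the spread between libraries. In it, 25 of the 29 arms with a ratio had a positive log2 ratio and a q-value under 0.05, beside 48.0% of its 1147 known miRNA rows with a ratio. The authors' deposited table gave miR-433-3p a log2 ratio of 1.93, miR-540-3p 2.46, miR-341-3p 2.35, miR-370-3p 2.28 and miR-127-3p 0.22. The log2 ratio of the pooled counts minus that of the authors' deposited table was −0.70 in every row, and the authors' deposited table lists miR-127-3p as up with 140256 pooled tags in ET1 and 195468 in untreated libraries.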

How the data were processed

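Total RNA was made into small RNA libraries with the BGI protocol, per the labels' protocols; Bowtie2 and mm10 are named, without a version of the aligner, per the submitters' processing notes. The annotation source, mismatches allowed and treatment of tags with several matches are not given in the sources used here. The authors deposited raw tag counts per row and library, and beside them values headed TPM that are RPM by their size, with no length correction; these were not tested. The authors' deposited comparison, named for DEGseq, holds pooled counts, group mean RPM, log2 ratios, p-values and q-values.

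Known miRNA rows were fitted with edgeR 4.0.16 in R 4.3.3: TMM, default expression filter, robust quasi-likelihood fit on the group alone, two-sided, Benjamini-Hochberg adjustment over all tested rows, threshold 0.05. The SE of a log2 fold change is its size over the square root of the F statistic. The same code was tested on simulated data. Levels carry SD over 3 libraries. Arm shares were compared by exact permutation (scipy 1.17.1). DESeq2 1.42.0 was an alternative. Known miRNA tags numbered 4381927 to 8651018 per library, so counting error is small for abundant arms; intervals and floors cover counting error only, since tags carry no molecular identifiers.

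Every arm is accounted for; arms with a mean of at least 10 CPM, or called, are given in every library. Members, lists and tests were chosen with earlier results of these data known. Within a group no pair of libraries agreed within sampling noise (chi-square over its degrees of freedom 336 to 1212). Sequences and positions are from RefSeq on GRCm38.p6, host genes from GENCODE M21. The lists of markers were smooth muscle, fibroblast, endothelial, lymphoid and myeloid, red cell, epithelial, Sertoli and germ cell.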

Additional observations from a re-analysis of the deposited data

How the results depend on the processing

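Over 14 alternative settings (13 for miR-431-3p and miR-493-3p, which did not reach 10 CPM in 3 libraries) 10 of the 17 tested arms had a positive log2 fold change in every setting that tested them, and 7 changed sign in at least 1. The settings reuse the same libraries. Signs were not counted in this way over all tested known miRNAs, so the count cannot be called particular to these arms. miR-433-3p ran from 1.01 to 1.92 and passed in 8 of the 14, and miR-540-3p from 1.54 to 2.48 and passed in 9. Of the known miRNAs 11 were called, against 38 in DESeq2, 41 with library sizes alone, 37 without a filter, 21 with the replicate block, and 0 both with all rows fitted together (116 at an unadjusted p under 0.05) and with the share of known miRNA tags as a covariate (39 unadjusted); with 1 library left out the count ran from 2 to 30. Of the arms 2 were called, against 4 in DESeq2, 6 with library sizes alone, 5 without a filter, 4 with the replicate block and 0 with all rows fitted together or with the covariate; with 1 library left out it ran from 0 to 2. Beside these, 14 of 616 known miRNAs were called higher with the replicate block. With 1 library left out, those called higher ran from 0 of 662 (without ET1 library 3) to 21 of 677 (without ET1 library 1). With all rows fitted together, p-values were adjusted over every small RNA row that passed the filter, not over known miRNAs alone. The cause of these changes was not tested. In the covariate fit the group can hardly be told from the share, which did not overlap between the groups.

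The sign turned as follows. With library sizes alone miR-127-3p was at 0.22, miR-3070-2-3p at 0.27 and miR-434-3p at 0.30. With all rows fitted together miR-337-5p was at −0.52, miR-434-5p at −0.24 and miR-673-5p at −0.011. With the covariate miR-127-3p was at 0.0019 and miR-673-5p at −0.83. miR-337-5p was at −0.035 in DESeq2, −0.054 without a filter, −0.066 with the replicate block and −0.046 with GC offsets, which also gave 0.088 for miR-434-3p and −0.12 for miR-770-3p. With 1 library left out miR-127-3p ran from −0.45 to 0.13, miR-3070-2-3p from −0.68 to 0.14, miR-337-5p from −0.42 to 0.24, miR-434-3p from −0.19 to 0.13 and miR-673-5p from −0.14 to 0.65. The difference in the share of the arms antisense to Rtl1 was 0.287 percentage points of known miRNA tags, −0.0502 as a percent of all tags and 0.0052 as a percent of the TMM-scaled library size, and 0.127 to 0.565 with 1 library left out. The difference in the share of the other stems was 0.118 percentage points of known miRNA tags, 0.0667 without miR-540-3p and 0.0209 as a percent of all tags. With 1 library left out, the difference in the 3p share of a stem changed sign in 6 stems, running in percentage points from −0.0014 to 0.0014 for miR-127, −0.90 to 0.53 for miR-341, −0.40 to 0.63 for miR-370, −11.1 to 0.31 for miR-493, −0.0051 to 0.070 for miR-540 and −0.64 to 0.020 for miR-1188.

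Deviations of same-numbered libraries from their group means correlated at 0.27, 0.057 and 0.24 across miRNAs, and each library correlated best with its own number. The main fit did not pair the libraries by number, because 1 correlation was under 0.1. These values do not settle whether the libraries were paired. The replicate block added miR-341-3p (2.32; edgeR adjusted p = 0.016) and miR-370-3p (2.14; edgeR adjusted p = 0.039) to the calls. In that fit 14 of 616 known miRNAs were called higher, against 8 in the main fit. The 14 arms under the filter had at most 26 tags in a library and were not tested.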
